A study of Mus musculus with 35 samples.

Results

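The colons of 5 axenic (germ-free) mice that received intestinal microbes labelled TG, the label the series also gives its Reg3a-transgenic mice, were compared with those of 5 axenic control mice. All 10 were given dextran sulfate sodium (DSS), a sulfated polymer added to drinking water that damages the lining of the colon. The 10 arrays were taken by their titles, with no measured value used, out of 35 arrays in 7 groups. Affymetrix Mouse Gene 1.0 ST arrays were hybridised from 200 ng of total RNA, and 1 probe set stood for each of 19908 genes. Every mouse of both groups was C57BL/6N and axenic, drank 3% DSS for 5 days and then plain water, and had its colon taken at day 12. The recipients were transplanted 3 weeks before DSS. For the controls the label says that DSS came before the transfer of microbes, and the labels do not tell if a transfer then took place, so these mice may not have been germ-free at collection. The promoter of the Reg3a transgene, age, sex, cage and the number of donors were not among the labels, and the number closing each title was taken as that of 1 animal. The p-values measure the spread between these animals and no more, and the number of arrays limits their precision. Values below are log2 signal, listed for recipients TG922, TG749, TG713, TG632 and TG446 and for controls CT677, CT517, CT465, CT229 and CT093, in that order.

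The colon of a germ-free mouse holds few IgA plasma cells and a thin antimicrobial programme, and both are built up when microbes arrive. Plasma cells in the lamina propria assemble IgA dimers around the J chain, and the epithelium carries them into the lumen. Epithelial cells meet microbes with secreted lectins, resistin-like molecule beta, phospholipase and lipocalin, and with the hydrogen peroxide made by the dual oxidase Duox2. Neutrophils enter from the blood when the barrier is breached.

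The arrays were not alike. The standard deviation of log2 signal over the probe sets of an array was 1.64 to 1.78 in the controls and 1.66 to 1.94 in the recipients, where recipient TG922 at 1.66 was the lowest and the other 4 were between 1.85 and 1.94. Median signal per array was 6.83 to 6.95 in the controls and 6.72 to 6.93 in the recipients. Colon identity was present in all 10 mice, with Muc2, the secreted mucin of goblet cells, at 12.45 to 13.86, the colon carbonic anhydrase Car1 at 12.44 to 13.50 and the distal colon gene Hoxb13 at 8.16 to 10.06. Fabp6, an ileal bile acid carrier, was at 4.86 to 5.33. Genes of pancreas acinar cells, which a colon should lack, averaged 8.68, 8.66 and 9.50 in recipients TG922, TG632 and TG446 and 7.89 in control CT465, against 6.00 to 6.63 in the other 6 mice. None of the 16 measured genes of that list passed the test. With the mean of that list as a covariate, limma called 158 genes, among them 58 of the 67 genes called without it. The posterior Hox list averaged 6.17 to 6.79 in the recipients and 6.64 to 6.85 in the controls. With its mean as a covariate 24 genes were called, among them 22 of the 67. Whether the position of the samples along the colon differed was not tested. Controls CT517 and CT229 stood apart from the other controls. The absorptive colonocyte list averaged 8.04 and 8.46 in them and 9.72 to 9.94 in the other 3, and the neutrophil list averaged 7.28 and 6.55 against 6.11 to 6.18.

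**Figure D1:**
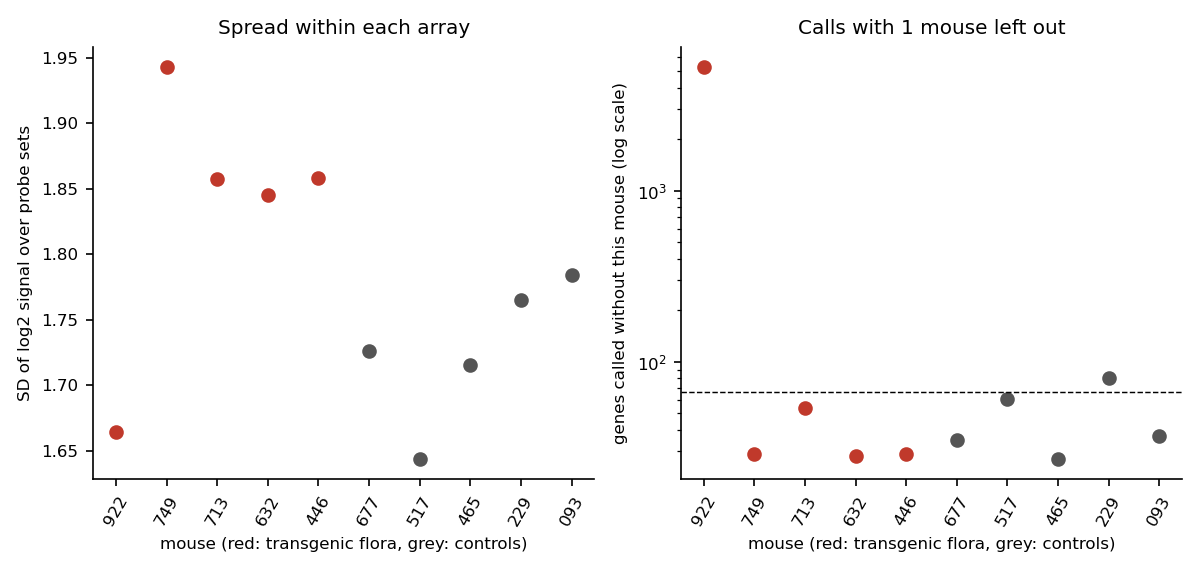
Left, the standard deviation of log2 signal over the probe sets of each array (y axis), by mouse (x axis). Right, the number of genes called when that mouse is left out (log axis), with the count from all 10 mice, 67, as a dashed line. Recipient TG922 has the lowest spread among the recipients, and leaving it out gives 5303 called genes.

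Both groups had been given DSS. Transgenic-flora recipients had higher levels of genes of plasma cells, of antimicrobial and oxidant enzymes of the epithelium and of neutrophils. In limma, 65 genes were higher and 2 were lower at an adjusted p under 0.05 (Benjamini-Hochberg over all genes), which is called below. That is 67 of 19908 genes, or 0.337%, with 0.327% higher and 0.01% lower. Of the called genes 52 rose and 2 fell at least 2-fold. All 5 recipients lay on 1 side of all 5 controls for each of the 67, which held for 548 genes (2.75%) over the whole array, 339 higher and 209 lower. An unadjusted p under 0.05 was reached by 3613 genes, and the median difference over all genes was -0.05. The balance of higher and lower calls depended on the normalization and on the model. It was 88 higher and 64 lower with quantile normalization repeated, 30 and 35 with the spread of each array as a covariate, and 3167 and 3488 with array weights. The count also depended on single mice. Without recipient TG922 it was 5303 (2642 higher and 2661 lower), and all 67 genes were among them. It was 29 without recipient TG749, 28 without TG632, 29 without TG446, 35 without control CT677, 27 without CT465 and 37 without CT093. Counts per list without TG922, given below, are to be set beside the 2642 higher and 2661 lower of all 19908 genes. Of the 67 genes 26 were called whichever of the 10 mice was left out, and the other 41 lost the call without at least 1 mouse. All of these genes kept the same direction.

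**Figure D2:**
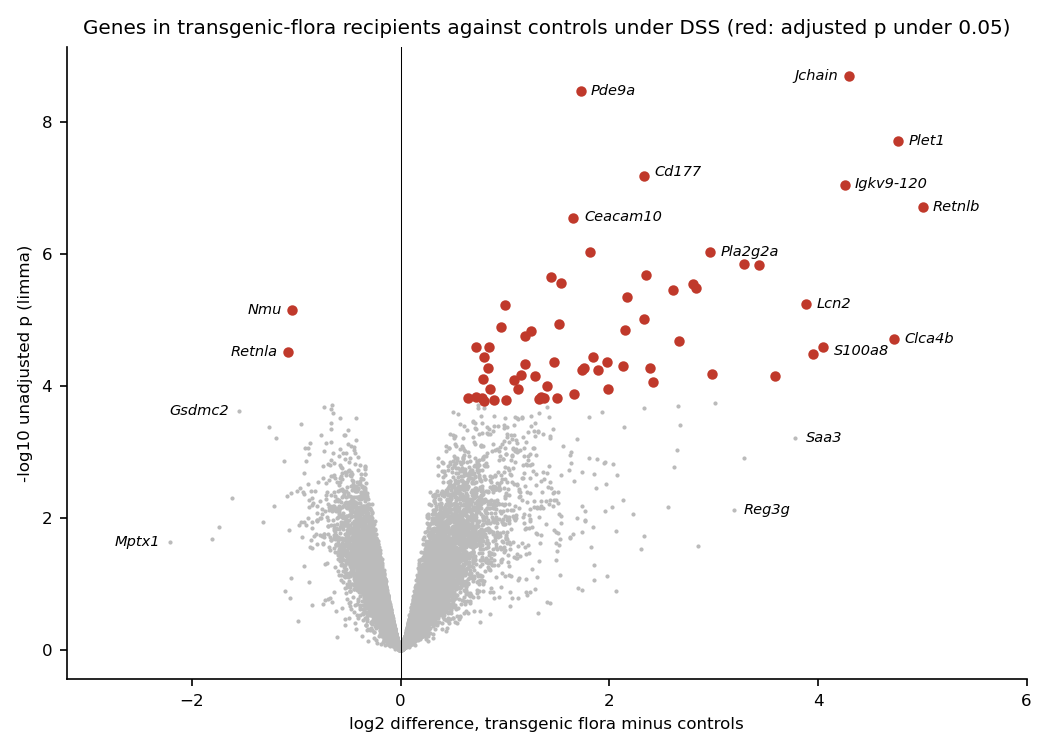
Each point is 1 of 19908 genes, with the log2 difference, transgenic flora minus controls (x axis), against -log10 of the unadjusted limma p (y axis). The 67 called genes are red, 65 to the right and 2 (Nmu and Retnla) to the left, and Jchain has the smallest p.

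Plasma cell genes were among those called higher. Jchain, the chain that joins IgA and IgM monomers, read 10.25, 11.07, 10.14, 11.56 and 10.68 in the recipients and 6.36, 6.28, 6.51, 6.19 and 6.90 in the controls. Every recipient was above every control by more than the spread within either group, and the difference was 4.29 (SE 0.25, adjusted p = 3.4e-05), a fold change of 19.6. Igha, the constant region of IgA, read 10.27, 11.88, 12.29, 11.10 and 11.74 in the recipients and 8.72, 8.79, 8.91, 8.65 and 9.14 in the controls. It rose by 2.61 (SE 0.31, adjusted p = 0.00406). Variable kappa segments rose as well, Igkv9-120 by 4.26 (SE 0.36, adjusted p = 0.000363) and Igkv10-96 by 3.43 (SE 0.38, adjusted p = 0.0027). Variable segments resemble one another closely, so their probe sets may read several of them. Ighg3, the constant region of IgG3, was near the bottom of the scale and rose by 0.72 (SE 0.13, adjusted p = 0.0483). Of 11 immunoglobulin genes measured under a single symbol, a set counted after the values were seen, 4 were called higher and all 11 had a positive difference, with a median of 1.46.

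Among the genes that run an antibody-secreting cell, Pou2af1, a B-cell coactivator, rose by 1.37 (adjusted p = 0.0483). Irf4, a transcription factor needed for plasma cells, and Tent5c, a poly(A) polymerase that stabilises immunoglobulin messages, rose by 0.90 (adjusted p = 0.0494) and 0.86 (adjusted p = 0.0397). Both were picked from the called genes after their values were seen. Irf4 read 6.34, 7.13, 6.25, 6.99 and 6.72 in the recipients and 5.74 to 5.88 in the controls. Of the 22 measured genes on the list of B and plasma cells, 3 were called higher (Jchain, Igha and Pou2af1) and none lower. All 22 had a positive difference, with a median of 0.86. Members that did not pass included Mzb1, a chaperone of antibody assembly, at 1.02 (adjusted p = 0.0722), Xbp1 at 0.84 (adjusted p = 0.0773), Ighm at 1.41 (adjusted p = 0.114), and the B-cell surface genes Cd79a at 1.62 (adjusted p = 0.206) and Ms4a1 at 1.53 (adjusted p = 0.208). Cd79a was at 8.66, 8.79 and 7.61 in recipients TG749, TG632 and TG446 but at 6.02 and 6.35 in TG922 and TG713, inside the control range of 5.14 to 7.37. Cxcl13, the chemokine that draws B cells into lymphoid follicles, rose by 2.33 (SE 0.31, adjusted p = 0.00865). It read 12.07 to 12.73 in the recipients and 9.70 to 9.87 in 4 controls, with control CT229 at 11.45. More cells of a type and more RNA per cell cannot be told apart in whole colon. Jchain, Igha, Cxcl13 and both kappa segments were called whichever mouse was left out. Leaving out any 1 of 8 of the 10 mice ended the call on Pou2af1 (adjusted p 0.0541 to 0.15), and the same number did so for Irf4 (0.065 to 0.154) and Ighg3 (0.065 to 0.134). For Tent5c it was any 1 of 9 (0.0624 to 0.13). Without recipient TG922 the list had 11 genes called higher.

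**Figure D3:**
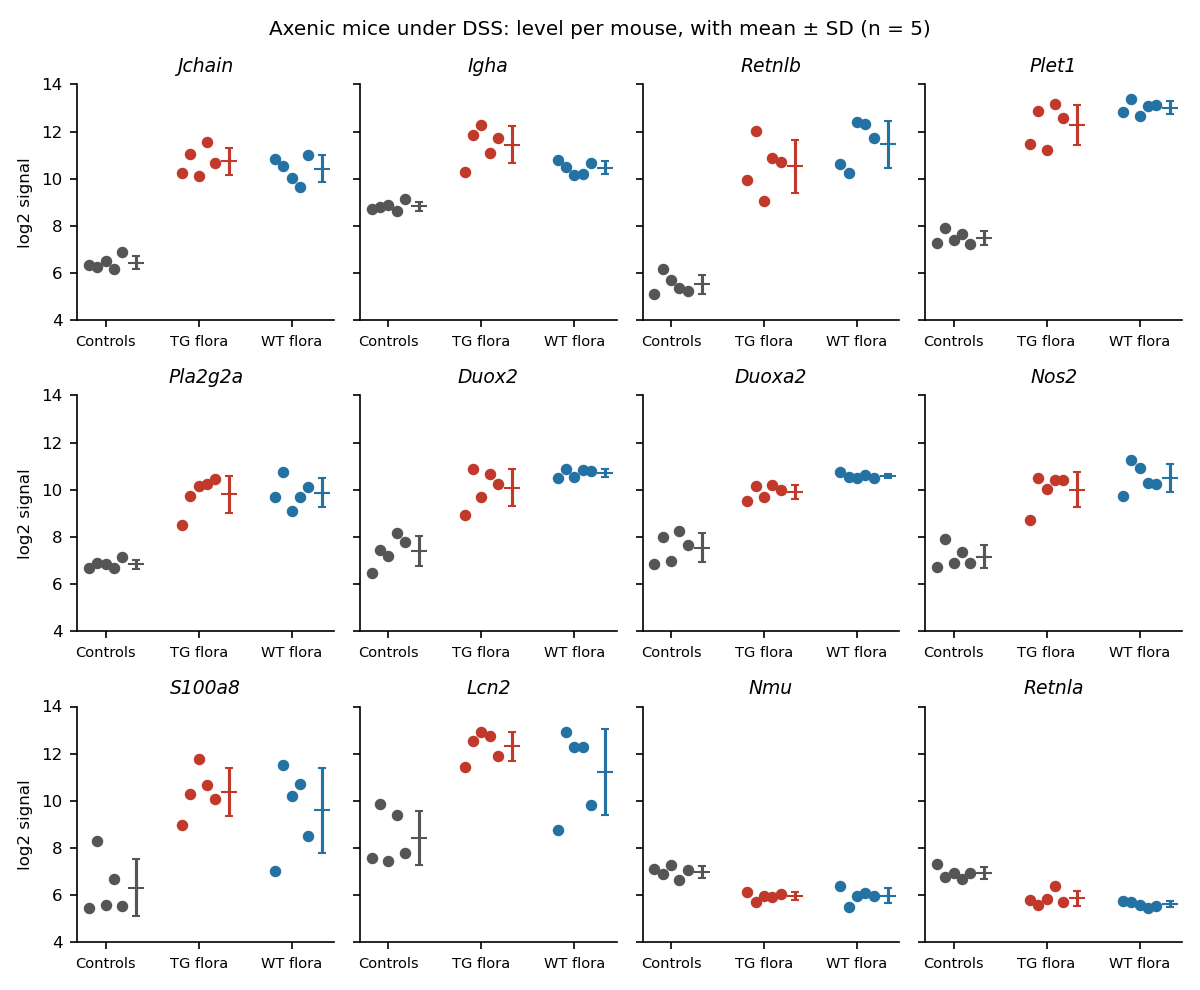
Log2 signal (y axis) of 12 genes in each mouse of the 3 axenic groups under DSS: controls, recipients of transgenic (TG) flora and recipients of wild-type (WT) flora. Points are mice and the bars beside them are the mean ± SD (n = 5). For all 12 genes the controls and the TG-flora recipients do not overlap, with Nmu and Retnla lower and the others higher in the recipients.

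Secreted antimicrobial proteins included the gene with the largest rise of all. Retnlb, resistin-like molecule beta, a goblet-cell protein that kills bacteria and is made in response to them, read 9.95, 12.03, 9.04, 10.90 and 10.73 in the recipients. In the controls it was at 5.13, 6.17, 5.70, 5.38 and 5.25. The difference was 5.00 (SE 0.45, adjusted p = 0.000636), or 32.1-fold, and the lowest recipient was well above the highest control. Pla2g2a, a secreted phospholipase that attacks bacterial membranes, rose by 2.96 (SE 0.31, adjusted p = 0.00206). RefSeq lists it as a transcribed pseudogene in this reference strain, so the signal is of transcript. Pglyrp1, a peptidoglycan-binding protein, rose by 1.44 (SE 0.17, adjusted p = 0.00343) from 10.37 to 11.19 in the controls to 11.83 to 12.49 in the recipients. Lcn2, the lipocalin that withholds iron from bacteria, read 11.43, 12.55, 12.93, 12.75 and 11.90 in the recipients and 7.57, 9.89, 7.47, 9.41 and 7.81 in the controls. The controls were split, with CT517 and CT229 the higher, but none reached a recipient, and the rise was 3.89 (SE 0.49, adjusted p = 0.00579). These 4 genes were called whichever mouse was left out.

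Other members of the resistin family moved differently. Retn, resistin itself, was not called and was lower in all 23 settings, by -1.92 to -0.54, with a call in 4 of them. It is on the adipocyte list, where 10 of 11 measured genes were lower (median -0.46) and none was called. How much fat each sample held was not measured. Retnlg, made by neutrophils and their precursors, rose by 3.59 (SE 0.59, adjusted p = 0.0286), from 5.50, 8.52, 5.67, 6.62 and 5.64 in the controls to 8.97, 9.90, 11.37, 10.26 and 9.39. Retnla, a product of alternatively activated macrophages and of epithelium, was 1 of the only 2 called genes that fell. It read 5.81, 5.58, 5.85, 6.37 and 5.71 in the recipients and 7.32, 6.76, 6.96, 6.70 and 6.96 in the controls, so that it fell by 1.07 (SE 0.16, adjusted p = 0.0183). The call on Retnlg was lost without any 1 of 8 of the 10 mice (adjusted p 0.0501 to 0.103) and that on Retnla without recipient TG749 or TG446 or control CT465 or CT093 (adjusted p 0.0595 to 0.069). The starts of these genes lie 29999 bases apart on the plus strand of mouse chromosome 16. Their promoter windows, from 250 bases before to 50 after the start, are shown because the neighbours moved in opposite directions. They are from RefSeq on GRCm38.p6, at chr16:48842359-48842658 for Retnla and chr16:48872358-48872657 for Retnlg, 5′ to 3′. Capitals mark matches on either strand to the TATA box letters (TATAAA) or to the C/EBP site letters (TTGCNNAA).
Retnla: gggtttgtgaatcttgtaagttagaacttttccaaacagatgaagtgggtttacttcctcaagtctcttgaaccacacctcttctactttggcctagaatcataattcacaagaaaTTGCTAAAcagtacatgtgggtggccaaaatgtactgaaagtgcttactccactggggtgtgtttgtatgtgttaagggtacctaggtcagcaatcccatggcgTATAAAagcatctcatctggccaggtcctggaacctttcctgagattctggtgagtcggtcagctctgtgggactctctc
Retnlg: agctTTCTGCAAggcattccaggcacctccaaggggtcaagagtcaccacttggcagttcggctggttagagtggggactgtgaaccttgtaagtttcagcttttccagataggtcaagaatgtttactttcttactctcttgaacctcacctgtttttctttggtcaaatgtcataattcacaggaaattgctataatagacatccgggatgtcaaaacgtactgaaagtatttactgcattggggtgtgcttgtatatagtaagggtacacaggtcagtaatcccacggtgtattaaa
Both windows held a C/EBP match, from position -134 in Retnla and from -246 in Retnlg relative to the start, and such a match was in 10.8% of 32851 promoter windows of this length. Retnla also had a TATA match from position -30, and 13.6% of windows had one at any place. The end of the Retnlg window resembles the stretch of Retnla that ends in this match, so the windows are offset. Their matches and positions therefore do not compare like places. Neither window matched TTCNNNGAA, a STAT site (8.3% of windows), or GGNNTTTCC, the last 9 letters of an NF-kB site (5.82%).

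Of the 23 measured genes on the list of lectins and antimicrobial proteins, 4 were called higher (Retnlb, Pla2g2a, Pglyrp1 and Lcn2) and 1 lower (Retnla), and the median difference was 0.49. Without recipient TG922 it had 8 called higher and 2 lower. The Reg3 lectins, which bind the surface of bacteria and include the protein whose transgene defines the TG mice, did not pass and varied widely among recipients. Reg3g read 6.63, 11.77, 5.93, 11.10 and 8.18 in the recipients and 5.53, 5.66, 5.33, 5.25 and 5.88 in the controls. All recipients were above all controls, recipient TG713 by very little, and the difference was 3.19 (SE 0.99, adjusted p = 0.155). Reg3b differed by 3.29 (adjusted p = 0.1), with recipient TG713 at 6.36, inside the control range of 5.78 to 6.57. Without recipient TG922 the adjusted p was 0.0245 for Reg3g and 0.0184 for Reg3b, and without TG713 it was 0.00715 for Reg3b. The mouse Reg3a gene read 6.19, 5.06, 5.19, 8.27 and 8.11 in the recipients and 5.14 to 5.35 in the controls, a difference of 1.32 (adjusted p = 0.265). It was high in recipients TG632 and TG446, in which the acinar list averaged 8.66 and 9.50. In recipient TG922 that list averaged 8.68 while Reg3a read 6.19. Control CT465, with an acinar mean of 7.89, was within the control range of Reg3a. Reg3a is also made in the pancreas, and with the mean of the acinar list as a covariate its difference was 0.55 (adjusted p = 0.345). Whether pancreas tissue accounts for the level of Reg3a was not tested. Mptx1, a goblet-cell pentraxin, differed by -2.20 (adjusted p = 0.216): it was at 5.54 to 6.51 in the recipients, and at 8.70, 10.60 and 9.51 in controls CT677, CT465 and CT093 but 5.58 and 6.03 in CT517 and CT229.

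Of the enzymes that make oxidants and nitric oxide, Duox2, Duoxa2 and Nos2 were called higher. Duox2, the dual oxidase that releases hydrogen peroxide, read 8.95, 10.88, 9.68, 10.69 and 10.23 in the recipients and 6.48, 7.44, 7.19, 8.18 and 7.77 in the controls, a rise of 2.67 (SE 0.39, adjusted p = 0.0143). Duoxa2, the maturation factor without which Duox2 stays inactive, read 9.51, 10.16, 9.68, 10.20 and 9.98 against 6.85, 8.01, 7.0, 8.28 and 7.64, a rise of 2.35 (SE 0.27, adjusted p = 0.00343). In both genes recipient TG922 was the lowest recipient and control CT229 the highest control, and the groups did not overlap. These genes stand head to head on chromosome 2, with starts 673 bases apart and transcribed away from each other, so their windows are shown (RefSeq, GRCm38.p6, Duox2 at chr2:122298178-122298477 on the minus strand and Duoxa2 at chr2:122298650-122298949 on the plus strand, 5′ to 3′ of each gene). The same 4 motifs were searched, and capitals mark the only match, TATAAA from position -30 of Duoxa2.
Duox2: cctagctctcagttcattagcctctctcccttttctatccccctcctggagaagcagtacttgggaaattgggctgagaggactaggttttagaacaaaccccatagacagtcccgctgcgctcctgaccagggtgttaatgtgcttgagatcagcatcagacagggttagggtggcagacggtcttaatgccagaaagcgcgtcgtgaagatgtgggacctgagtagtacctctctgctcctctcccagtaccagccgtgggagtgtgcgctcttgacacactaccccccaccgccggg
Duoxa2: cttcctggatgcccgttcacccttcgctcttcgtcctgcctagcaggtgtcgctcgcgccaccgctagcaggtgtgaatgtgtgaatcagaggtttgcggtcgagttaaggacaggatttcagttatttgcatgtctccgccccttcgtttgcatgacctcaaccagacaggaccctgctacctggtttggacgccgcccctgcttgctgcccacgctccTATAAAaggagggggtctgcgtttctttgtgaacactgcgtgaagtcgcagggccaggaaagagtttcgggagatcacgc
Nos2, inducible nitric oxide synthase, read 8.73, 10.49, 10.02, 10.40 and 10.40 in the recipients and 6.74, 7.92, 6.92, 7.39 and 6.91 in the controls. It rose by 2.83 (SE 0.34, adjusted p = 0.00406), or 7.12-fold.

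Of the 14 measured genes on the list of oxidant and nitric oxide enzymes these 3 were called higher and none lower, with a median of 0.55. The phagocyte oxidase genes did not pass. Cyba, its small membrane subunit, differed by 1.04 (adjusted p = 0.0867) and Cybb, its catalytic subunit, by 1.77 (adjusted p = 0.156), where recipient TG922 at 8.26 lay within the control range of 6.86 to 9.39. Duox1, the other dual oxidase, differed by -0.18 (adjusted p = 0.494). The peroxidase Lpo, which uses hydrogen peroxide to make antibacterial products, rose by 1.74 (adjusted p = 0.0252) and Gpx3, a secreted glutathione peroxidase, by 1.76 (adjusted p = 0.0245). Both were named after their values were seen. Duoxa2 and Nos2 were called whichever mouse was left out, Duox2 lost the call without recipient TG632 or TG446 or control CT465 (adjusted p 0.0545 to 0.0633), and Lpo and Gpx3 lost it without any 1 of 7 and of 8 mice. The list had 9 genes called higher without recipient TG922.

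Injured and regenerating epithelium was represented by a pair of very large rises. Plet1, a surface protein of progenitor and wound epithelium, read 11.49, 12.87, 11.24, 13.18 and 12.60 in the recipients and 7.28, 7.93, 7.40, 7.68 and 7.25 in the controls. Its rise of 4.77 (SE 0.35, adjusted p = 0.00013) was 27.3-fold. Clca4b, of the chloride channel accessory family, read 12.24, 12.98, 12.25, 12.91 and 13.09 in the recipients and 6.03, 9.49, 6.43, 9.93 and 7.95 in the controls. Its controls were spread over almost 4 log2 units while its recipients were close together. It rose by 4.73 (SE 0.68, adjusted p = 0.0139) and lost the call without recipient TG749, TG632 or TG446 (adjusted p 0.0541 to 0.0621). Of the 16 measured genes on the list of wound epithelium these were the 2 called higher, and the median was 0.36. Ly6d differed by 1.53 (adjusted p = 0.114), and Il33, an alarmin of the barrier, by 0.51 (adjusted p = 0.559). Without recipient TG922 the list had 6 genes called higher. Prom1, a membrane glycoprotein of progenitor cells, rose by 2.17 (SE 0.27, adjusted p = 0.00503) and was the 1 called gene among 19 of the crypt stem cell list, whose median was -0.06. Mmp7, the matrix metalloprotease that activates defensins, rose by 1.19 (adjusted p = 0.0236), was the 1 called gene among 28 of the matrix list, and was not called without any 1 of 7 mice.

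Among goblet-cell and mucus genes, 2 were called higher. Spink4, a trypsin inhibitor of goblet cells, read 12.53, 12.23, 11.80, 11.96 and 12.30 in the recipients and 10.63, 10.34, 10.59, 10.41 and 11.18 in the controls, and rose by 1.53 (SE 0.18, adjusted p = 0.00381). Fut2, the fucosyltransferase that microbes induce in gut epithelium, rose by 1.51 (SE 0.21, adjusted p = 0.00992), with 11.15 to 12.18 in the recipients and 9.98 to 10.54 in the controls. The list held 21 measured genes, of which 20 had a positive difference and the median difference was 0.47. Muc2 itself differed by 0.47 (adjusted p = 0.248), the mucus processor Agr2 by 0.47 (adjusted p = 0.153) and the membrane mucin Muc4 by 1.24 (adjusted p = 0.105). Other glycan enzymes among the called genes, named after their values were seen, were B3galt5 at 1.47 (adjusted p = 0.0229) and B4galnt1 at 1.97 (adjusted p = 0.0229). Leaving out any 1 of TG749, TG632, TG446 and CT465 ended the call on B3galt5, and any 1 of TG632, TG446, CT677, CT465 and CT093 that on B4galnt1 (adjusted p 0.0545 to 0.0895 over both). Without TG922 the goblet-cell list had 6 genes called higher.

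Of 33 absorptive colonocyte genes, 2 were called higher. Slc51b, a subunit of the basolateral bile acid exporter, rose by 1.84 (SE 0.28, adjusted p = 0.0201) and the water channel Aqp4 by 1.35 (SE 0.24, adjusted p = 0.0483). Leaving out any 1 of 6 mice ended the call on Slc51b (adjusted p 0.0542 to 0.0699), and any 1 of 8 that on Aqp4 (0.0501 to 0.15). Without TG922 the list had 4 genes called higher, a share no larger than the 2642 of all 19908 genes. The list median was 0.31, and its mean in the recipients, 9.18 to 9.87, lay within the controls' 8.04 to 9.94. Slc26a3, the chloride exchanger of the colon surface, was at 10.54 to 11.55 in the recipients and 7.52 to 12.15 in the controls, with a difference of 0.76 (adjusted p = 0.596). Aqp8 differed by 0.14 (adjusted p = 0.904). Among genes outside every list, Pde9a, which degrades cyclic GMP, had the second smallest p of the comparison. It read 11.76, 11.91, 11.73, 11.66 and 11.60 in the recipients and 9.89, 9.94, 9.85, 10.28 and 10.07 in the controls, and rose by 1.73 (SE 0.11, adjusted p = 3.4e-05). Isx, the intestinal homeobox gene that represses beta-carotene uptake, rose by 1.81 (SE 0.19, adjusted p = 0.00206) and Ceacam10 by 1.66 (SE 0.16, adjusted p = 0.000822). Pde9a, Isx and Ceacam10 were named after their values were seen, and all 3 were called whichever mouse was left out.

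Of 23 measured neutrophil genes, 5 were called higher and none lower, with a median of 1.62. S100a8, a subunit of calprotectin, the neutrophil protein that binds zinc and manganese, read 8.98, 10.31, 11.79, 10.67 and 10.10 in the recipients and 5.47, 8.31, 5.57, 6.70 and 5.55 in the controls. It rose by 4.05 (SE 0.60, adjusted p = 0.0162), and control CT517 came within 1 log2 unit of recipient TG922. Mmp8, neutrophil collagenase, read 7.47, 9.70, 11.46, 9.52 and 8.64 against 5.07, 6.47, 5.08, 5.34 and 5.08, a rise of 3.95 (SE 0.60, adjusted p = 0.0193). Ngp, a granule protein of immature neutrophils, rose by 2.99 (SE 0.49, adjusted p = 0.0283) and read from 6.65 in recipient TG922 to 10.04 in recipient TG713. Recipient TG713 was the highest in S100a8, Mmp8, Ngp and Retnlg and recipient TG922 the lowest in all 4. Cd177, a neutrophil surface protein that colon epithelium can also express, behaved otherwise. It read 9.78, 10.58, 9.70, 10.39 and 10.26 against 7.94, 8.0, 7.80, 7.34 and 7.95, a rise of 2.33 (SE 0.19, adjusted p = 0.000323), and recipient TG713 was its lowest recipient. S100a9, the partner of S100a8, differed by 2.62 (adjusted p = 0.107), with control CT517 at 10.13 above 3 recipients. The list count was 1 without any 1 of recipients TG749 and TG632 and controls CT677, CT465 and CT093, 2 without recipient TG446, 3 without control CT229 and 15 without recipient TG922. The call on S100a8 was lost without any 1 of 6 mice (adjusted p 0.0541 to 0.068), on Mmp8 without any 1 of 5 (0.0614 to 0.078) and on Ngp without any 1 of 8 (0.051 to 0.09), whereas Cd177 was always called.

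Acute phase genes partly followed. Lrg1, a secreted glycoprotein of inflammation, read 9.85, 10.56, 10.87, 11.71 and 10.77 in the recipients and 7.88, 8.54, 7.24, 8.42 and 7.66 in the controls. Its rise of 2.80 (SE 0.33, adjusted p = 0.00381) and that of Lcn2 were the 2 calls among 20 genes of the acute phase and complement list, whose median was 0.82. Saa3, a serum amyloid A gene, differed by 3.78 (SE 0.81, adjusted p = 0.0797). It was at 10.99 to 12.54 in the recipients and split the controls, 10.16 and 10.73 in CT517 and CT229 against 6.49 to 7.10. Its adjusted p was 0.0143 without recipient TG922 and 0.0309 without control CT229. Saa1 and Saa2, of the same family, were not called, whichever mouse was left out. With 1 mouse left out their differences ran from -1.05 to 0.16 and from -0.09 to 0.03. None of 30 cytokine genes was called, and their median was 0.10. Il1b, for example, differed by 2.31 (adjusted p = 0.234) and read 11.23 in control CT517 and 9.60 in CT229, in the range of 8.45 to 11.63 of the recipients. An unadjusted p under 0.05 was reached by 3 of the 30, a smaller share than the 3613 of all 19908 genes. Without recipient TG922 limma called 2 of the 30 higher and 2 lower, smaller shares than the 2642 and 2661 of all genes. Of 30 chemokines Cxcl13 alone was called, while Cxcl9, an interferon-induced T-cell attractant, differed by 2.33 (adjusted p = 0.2). Without TG922 the acute phase list had 14 genes called higher, the chemokines 7 and the microbial sensors 15. Pycard, the adaptor of the inflammasome, rose by 0.65 (adjusted p = 0.0483), the 1 call among 30 microbial sensor genes, and it was not called without any 1 of 9 mice.

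**Figure D4:**
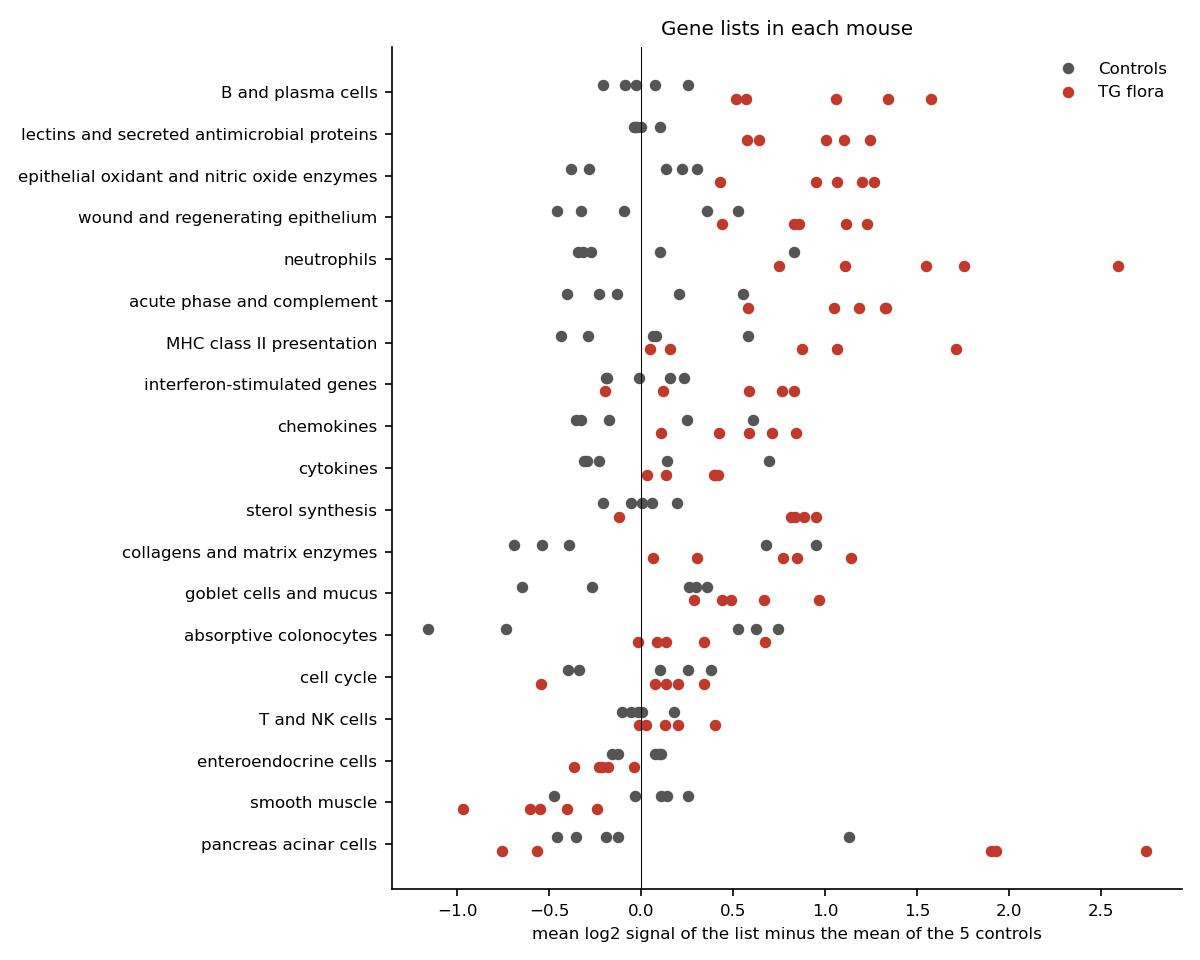
For 19 gene lists (y axis), the mean log2 signal of the list in each mouse minus the mean of the 5 controls (x axis), with controls grey and recipients of transgenic (TG) flora red. The recipients lie above every control for the plasma cell, antimicrobial and oxidant lists, and narrowly so for the acute phase and complement list. Lists in which the groups overlap include neutrophils, wound epithelium, goblet cells, cytokines, T cells and colonocytes. For smooth muscle the recipients lie mostly to the left. The 3 recipients and 1 control with high acinar values are on the bottom line.

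The other called gene that fell, beside Retnla, was Nmu. It encodes neuromedin U, a peptide of enteric neurons that activates innate lymphoid cells, and read 6.14, 5.70, 5.98, 5.92 and 6.06 in the recipients and 7.10, 6.88, 7.30, 6.64 and 7.07 in the controls. It fell by 1.04 (SE 0.13, adjusted p = 0.00671) and was called whichever mouse was left out. Its level is low on this scale in both groups. Short of the threshold were Mylk, myosin light chain kinase of smooth muscle, at -0.73 (adjusted p = 0.0557), and Gsdmc2, an epithelial gasdermin, at -1.55 (adjusted p = 0.0603). Each passed without recipient TG922 (adjusted p = 0.0122 and 0.0116) and without control CT517 (0.0191 and 0.0337). Gsdmc2 read 9.19, 9.09, 9.29, 7.96 and 9.28 in the recipients and 10.58, 9.78, 10.81, 10.27 and 11.11 in the controls. None of the 20 smooth muscle genes was called, but all 20 had a negative difference, with a median of -0.57, and 12 had an unadjusted p under 0.05. The list mean was 8.61, 9.17, 9.33, 8.97 and 9.03 in the recipients and 9.69, 9.10, 9.72, 9.54 and 9.83 in the controls, where control CT517 lay among the recipients. Myh11, smooth muscle myosin, differed by -1.12 (adjusted p = 0.103). With quantile normalization 10 of the 20 were called lower, and without recipient TG922 it was 7. How much muscle each sample held was not measured, so a smaller share of muscle and less RNA per muscle cell cannot be told apart.

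Several lists had no gene called at 5 mice a group. All 20 genes of sterol synthesis had a positive difference, with a median of 0.55, and 14 an unadjusted p under 0.05. Their mean was 9.28, 9.17, 9.15 and 9.22 in recipients TG749, TG713, TG632 and TG446, above the controls' 8.13 to 8.53, but 8.21 in recipient TG922. Without that mouse 19 of the 20 were called higher. All 11 genes of MHC class II presentation had a positive difference, with a median of 0.78, and 3 were called higher without recipient TG922. Interferon-stimulated genes (29 measured, median 0.36) had 14 called higher without it and endoplasmic reticulum stress genes (22 measured, median 0.31) had 13. The 26 cell cycle genes were close to 0, from -0.20 to 0.27, and none reached an unadjusted p under 0.05. T and NK cells (33 genes, median 0.05), enteroendocrine cells (20 genes, median -0.22) and enteric neurons and glia (20 genes, median -0.26) had no call either. Without TG922 they had 5 higher and 2 lower, 4 lower and 8 lower, beside 2642 higher and 2661 lower of all 19908 genes.

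Recipients of flora from wild-type donors, treated alike and measured against the same 5 controls, were set beside these differences. In that comparison 13401 genes (67.3%) were called, 6399 higher and 7002 lower. The count was 6637 with quantile normalization repeated and 1 with the spread of each array as a covariate. That spread, the standard deviation of log2 signal, was 1.90 to 2.03 in the wild-type-flora recipients and 1.64 to 1.78 in the controls. Of the 67 genes above, 66 were also called with wild-type flora, and Ngp was not (1.98, adjusted p = 0.0573). Since both comparisons use the same controls, their agreement is no separate evidence. Set side by side, Retnlb was 5.00 above controls with transgenic and 5.95 with wild-type flora, Plet1 4.77 and 5.51, Clca4b 4.73 and 4.72, Jchain 4.29 and 3.98, Igha 2.61 and 1.62, Pla2g2a 2.96 and 3.02, Duox2 2.67 and 3.30, S100a8 4.05 and 3.28, and Nmu -1.04 and -1.01.

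**Figure D5:**
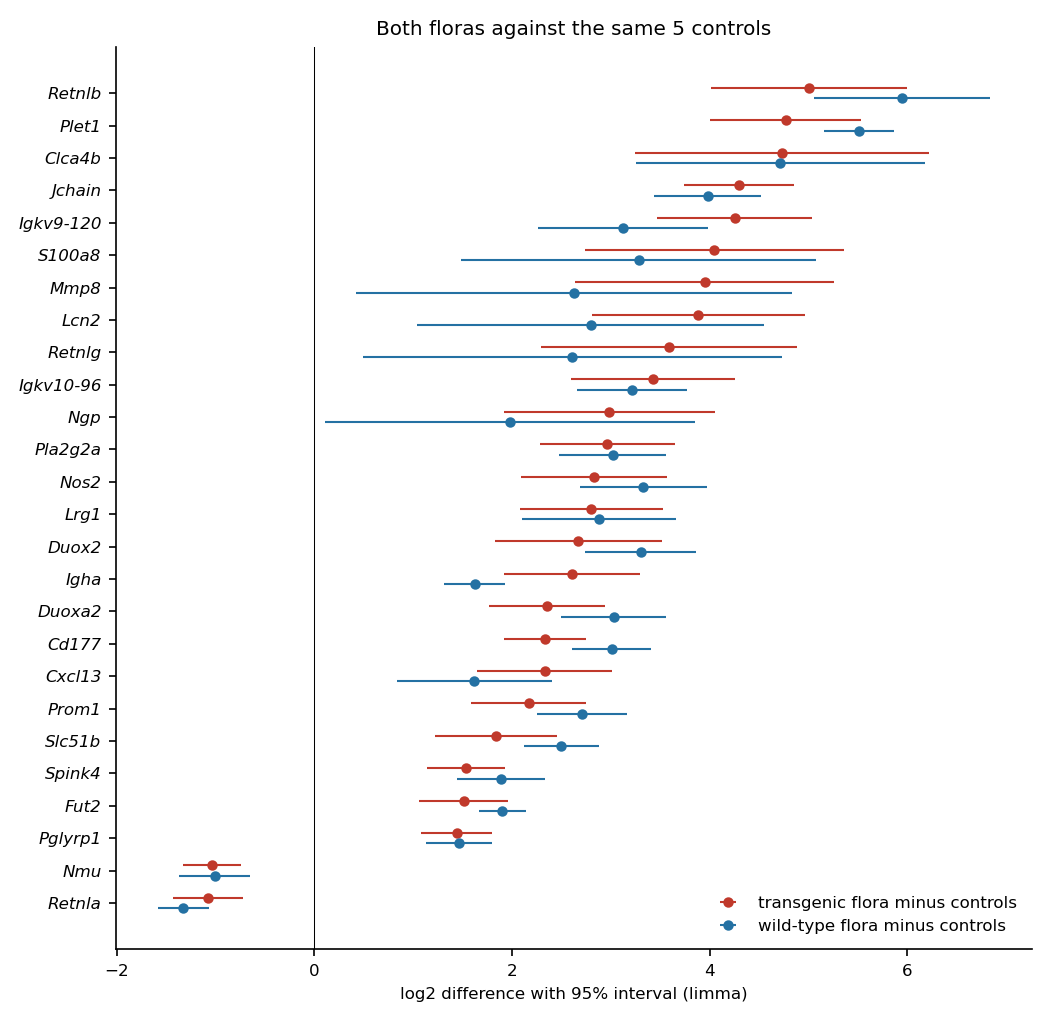
Log2 difference from the same 5 controls with its 95% interval from limma (x axis) for 26 genes (y axis), with transgenic flora in red and wild-type flora in blue. Intervals of the neutrophil genes Mmp8, Ngp and Retnlg are wide with wild-type flora, and Nmu and Retnla lie left of 0 with both.

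The direct test between the floras does not involve the controls. It called 0 of 19908 genes in limma (0%), although 6856 had an unadjusted p under 0.05 and the smallest adjusted p was 0.0695. With all 15 axenic arrays in 1 model 1317 genes were called, and with array weights 4886. Without recipient TG749 4700 genes were called, and without recipient WT793 149. Of the 65 called higher above controls, 46 were lower with transgenic than with wild-type flora, and the median difference over all 65 was -0.26. The spread of the arrays also differed, 1.66 to 1.94 with transgenic and 1.90 to 2.03 with wild-type flora. Whether it accounts for this direction was not tested. On the scale of transgenic minus wild-type flora, Duoxa2 stood at -0.68 (95% interval -0.98 to -0.38, adjusted p = 0.0695), Ceacam10 stood at -0.82 (-1.28 to -0.37, adjusted p = 0.0695) and Cd177 at -0.68 (-1.14 to -0.21, adjusted p = 0.0778). Igha stood at 0.99 (0.28 to 1.69, adjusted p = 0.0824) and Cxcl13 at 0.71 (0.18 to 1.24, adjusted p = 0.0863). These 5 intervals leave out 0, but none of the 5 passed after adjustment. For Clca4b the interval was -0.42 to 0.44, for Pglyrp1 -0.34 to 0.29 and for Nmu -0.36 to 0.31; larger differences lie outside these intervals. For Reg3g, at -2.23, it ran from -5.07 to 0.62, and for Mmp8 from -1.15 to 3.79, so that these 10 mice leave a wide range. The acinar list averaged 9.61 with wild-type flora (6.47 to 10.74 by mouse) and 7.81 with transgenic flora (6.00 to 9.50). Whether acinar signal bears on Reg3g was not tested.

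Levels in the conventional mice of the series place the groups on a common scale, as a description with no test. Xist, an RNA of female cells, was at 4.80 to 5.24 in all 15 axenic mice. It ran from 4.85 to 11.71 in untreated and from 4.79 to 11.19 in DSS-treated conventional wild-type mice. The mix of sexes thus differed between axenic and conventional groups. Jchain was at 6.45 ± 0.28 (SD, n = 5) in the controls, below all 5 untreated conventional wild-type mice (7.98 to 10.08), and at 10.74 ± 0.59 in the transgenic-flora recipients, above all of those. Igha followed a like order, 8.84 ± 0.19 in the controls, 9.16 ± 0.74 in untreated wild-type mice and 11.46 ± 0.79 in the recipients, but the first pair overlapped. Retnlb in the controls, 5.53 ± 0.42, overlapped untreated wild-type mice (5.14 ± 0.42), and its 10.53 ± 1.12 in the recipients was below all 5 wild-type mice under DSS (12.15 to 12.77). Plet1 and Clca4b in the controls averaged 7.51 and 7.97, against 7.32 and 6.76 in untreated wild-type mice and 12.71 and 12.21 in wild-type mice under DSS. Nmu was at 7.0 ± 0.25 in the controls, 6.74 ± 0.34 in untreated and 6.28 ± 0.44 in DSS-treated wild-type mice, and 5.96 ± 0.17 in the recipients. Retnla in the controls, 6.94 ± 0.24, had the highest mean of the 7 groups, and its range of 6.70 to 7.32 overlapped that of untreated wild-type mice, 5.78 to 6.76.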

How the data were processed

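The authors deposited log2 values for 28090 probe sets on 35 arrays, made with RMA (background correction, quantile normalization and probe set summary) in Affymetrix Expression Console 1.1 per the submitters' processing notes. The genome build is absent from those notes. Probe sets with 1 symbol in the platform annotation (21639) were kept, 1539 with several and 4912 without were left out, and the probe set of highest mean over all arrays stood for each of the 990 genes with more than 1. Differences were fitted on the 10 arrays with limma 3.58.1 (R 4.3.3, lmFit and eBayes, two-sided), with Benjamini-Hochberg adjustment over 19908 genes; the procedure was tested on simulated data. Every adjusted p in the text is from limma. Named genes were the 12 largest rises and falls among called genes with groups not overlapping. Where fewer passed, up to 6 with the smallest p were added. Further named genes were up to 4 per list with the smallest p, up to 5 between floras and a fixed set of eligible genes. Predicted genes and clone names were skipped in the rankings over all genes. Cd79a, Ighm, Ms4a1, Ighg3, Irf4, Tent5c, Cybb, Duox1, Lpo, Gpx3, Il33, B3galt5, B4galnt1, Pde9a, Isx and Ceacam10 fall outside this rule and were chosen after their values were seen, and Car1 and Fabp6 serve as tissue checks. The members and lists were chosen with earlier results of these data known. Means of 38 lists (779 genes) per mouse are plain averages.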

Additional observations from a re-analysis of the deposited data

Results flagged for a closer look

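The gap between an extreme mouse and its neighbour was taken in 140 sets of 5 values. These were the genes named in the text other than Xist, Retn, Saa1 and Saa2, and the array spread, in recipients and in controls. The gap took up more than 0.71 of the range 7 times, and chance gives about 1 in 20 sets, or 7. Among the recipients, TG922 was the lowest in Nos2, at 8.73 with the next mouse at 10.02 (gap 0.734 of the range), and the highest in Fabp6, at 5.31 with the next at 4.98 (0.741). Recipient TG632 was the lowest in Gsdmc2, at 7.96 with the next at 9.09 (0.845).

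Among the controls, CT229 was the highest in Cxcl13, at 11.45 with the next at 9.87 (0.906), and the lowest in Ceacam10, at 6.49 with the next at 7.04 (0.716). Control CT517 was the highest in Mmp8, at 6.47 with the next at 5.34 (0.811), and CT093 the highest in Pycard, at 8.40 with the next at 8.21 (0.729).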

How the results depend on the processing

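The number of called genes for transgenic flora minus controls was 67 and moved with most choices, while no called gene changed sign. It was 152 with quantile normalization repeated over the 10 arrays (88 higher and 64 lower), 274 with all 15 axenic arrays in the model, 661 with all 35, 6655 with array weights (3167 higher and 3488 lower), 6280 when the mean of smooth muscle genes was a covariate (2871 and 3409), 24 with the posterior Hox list and 158 with the pancreas list. Adding the spread of each array as a covariate gave 65, of which 30 were higher and 35 lower. Without 1 mouse it ran from 27 to 5303, and without the arrays of lowest spread in both groups, a choice made after seeing the data, it was 3499. Of the 67 genes 18 were called under all alternatives, 57 with quantile normalization, 28 with the array spread and 22 with the posterior Hox list. For wild-type flora minus controls the count of 13401 became 6637 with quantile normalization and 1 with the array spread, and ran from 11735 to 13465 without 1 mouse. Between the floras it was 0, but 1317 with 15 arrays and 4886 with array weights, and 0 to 4700 without 1 mouse. The cause of these changes was not tested. No paired analysis was possible because the labels give each mouse a number of its own that no other group shares.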
